A study of Mus musculus with 4 samples.

Results

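The clade B serpins followed here are 9 genes named by symbol among the 26322 genes listed for the MC38 libraries. They are Serpinb9, Serpinb9b, Serpinb9e, Serpinb9f, Serpinb9g, Serpinb6a, Serpinb6b, Serpinb1a and Serpinb8. The family was selected on the measured difference of 1 gene, Serpinb9b, which was already known to be higher in these sgCbfb libraries, and the other members were added as its relatives. Values of Serpinb9b are therefore a description, its standard error and interval included. Its place past or short of a threshold was known beforehand and supports nothing. MC38, a mouse colon carcinoma line, was electroporated with Cas9 and either a non-targeting guide (labelled WT, here sgNT) or a guide against Cbfb (labelled CbfbKO, here sgCbfb), and RNA was collected at least 1 week later. Cbfb encodes CBFβ, the partner of the RUNX transcription factors. There were 2 libraries in each group, made with a QuantSeq 3′ mRNA kit, in which a gene's reads come from the transcript end and do not grow with its length. All cells went through the same Cas9 electroporation, the sgCbfb cells carry a single guide, and the labels do not say whether they are a pool or a clone, nor whether replicates were separate cultures. The standard errors, the intervals of log2 differences and the p-values below come from limma. It draws the variance of each gene towards that of genes at a similar level. They rest on the spread between these libraries, which may be technical.

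Clade B serpins are the serpins that stay inside the cell. A serpin presents a flexible loop as bait to a protease, and once the loop is cut the serpin changes shape and traps the enzyme. Serpinb9 is the inhibitor of granzyme B, the protease that cytotoxic lymphocytes deliver through perforin pores, and it is known for protecting both killer cells and tumour cells. Serpinb6a and Serpinb6b are related to human SERPINB6, an inhibitor of trypsin-like proteases and cathepsin G. Serpinb1a inhibits neutrophil elastase, cathepsin G and proteinase 3, and Serpinb8 is related to human SERPINB8, an inhibitor of furin. In the mouse the Serpinb9, Serpinb6 and Serpinb1 genes have multiplied into tandem copies, many of which have no single human counterpart.

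Of the members, 8 lie in 1 cluster on chromosome 13 of GRCm38, from 32842092 to 34002794, and Serpinb8 lies apart on chromosome 1 (107590006 to 107610484, plus strand). All are annotated as protein-coding in GENCODE M21. Serpinb1a opens the cluster (32842092 to 32851185, minus strand) and is followed on the plus strand by Serpinb6b (32965209 to 32979067), Serpinb9 (33003250 to 33017957) and Serpinb9b (33027416 to 33041884). Serpinb9e (33249612 to 33260850), Serpinb9f (33324077 to 33335370) and Serpinb9g (33484790 to 33496004) come next, also on the plus strand. Serpinb6a closes the cluster on the minus strand (33917918 to 34002794) and overlaps Nqo2, the antisense transcript 1110046J04Rik and the first bases of Ripk1, all on the opposite strand.

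Promoter sequences were available from RefSeq (GRCm38.p6) for 8 of the 9 members, as windows of 250 bases before to 50 bases after the gene start. The 5 windows printed here are those of Serpinb9b and its neighbour Serpinb9, of Serpinb9e as a copy without reads, of Serpinb6b, and of Serpinb6a, the member with most reads. Each is written 5′ to 3′ on the gene's strand, and capitals mark the RUNX motif TGTGGT or TGCGGT, read on both strands.
Serpinb9b, chr13:33027164-33027463, plus strand: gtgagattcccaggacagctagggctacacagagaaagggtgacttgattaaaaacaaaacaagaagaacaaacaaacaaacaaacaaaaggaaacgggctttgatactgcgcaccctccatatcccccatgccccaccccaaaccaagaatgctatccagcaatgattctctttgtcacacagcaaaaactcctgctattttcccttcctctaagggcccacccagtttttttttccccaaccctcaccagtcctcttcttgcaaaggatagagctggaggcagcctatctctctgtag
Serpinb9, chr13:33004291-33004590, plus strand: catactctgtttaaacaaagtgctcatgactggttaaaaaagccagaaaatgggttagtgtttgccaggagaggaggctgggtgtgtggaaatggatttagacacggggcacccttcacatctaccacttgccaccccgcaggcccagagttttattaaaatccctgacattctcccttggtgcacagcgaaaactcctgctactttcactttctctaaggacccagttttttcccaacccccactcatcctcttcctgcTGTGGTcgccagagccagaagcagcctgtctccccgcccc
Serpinb9e, chr13:33249358-33249657, plus strand: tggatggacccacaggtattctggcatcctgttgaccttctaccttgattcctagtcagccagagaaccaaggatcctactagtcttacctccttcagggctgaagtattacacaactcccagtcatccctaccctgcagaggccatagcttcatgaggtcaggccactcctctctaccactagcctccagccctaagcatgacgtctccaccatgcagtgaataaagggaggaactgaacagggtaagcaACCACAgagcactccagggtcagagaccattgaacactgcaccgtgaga
Serpinb6b, chr13:32965011-32965310, plus strand: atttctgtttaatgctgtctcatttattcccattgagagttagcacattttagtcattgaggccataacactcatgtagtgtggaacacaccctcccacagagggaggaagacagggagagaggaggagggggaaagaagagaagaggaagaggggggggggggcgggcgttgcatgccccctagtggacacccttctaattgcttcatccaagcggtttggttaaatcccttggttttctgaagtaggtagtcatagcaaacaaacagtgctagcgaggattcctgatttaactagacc
Serpinb6a, chr13:34002745-34003044, minus strand: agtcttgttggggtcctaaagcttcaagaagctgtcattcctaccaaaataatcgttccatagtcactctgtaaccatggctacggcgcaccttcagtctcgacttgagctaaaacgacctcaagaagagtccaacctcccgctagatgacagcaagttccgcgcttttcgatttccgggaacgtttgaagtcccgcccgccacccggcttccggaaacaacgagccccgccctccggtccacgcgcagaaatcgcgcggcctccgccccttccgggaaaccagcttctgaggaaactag

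The motif was present once in the window of Serpinb9, 10 bases past the gene start, and once on the opposite strand in the windows of Serpinb9e and Serpinb9f. These letters were not in the windows of Serpinb9b, Serpinb6b, Serpinb8, Serpinb9g or either start of Serpinb6a. Over 32851 promoter windows of the same length, 22.4% held a match, so that 3 of the 9 windows of the members is a description only. Serpinb9 and Serpinb9b share 57.7% of the aligned columns of their windows. The RefSeq start of Serpinb9 lies inside the GENCODE gene, whose first base is at 33003250. The window of Serpinb9e shares 89.8% with that of Serpinb9f and 93.4% with that of Serpinb9g, but 44.8% with that of Serpinb9b. The upstream start of Serpinb6a stood out in base composition, with 25 CpG dinucleotides against 2 to 5 in the other 8 windows and a median of 7 over the 32851 windows.

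In the coding sequences, among the Serpinb9 copies, Serpinb9e, Serpinb9f and Serpinb9g are 94.96% to 98.7% identical to one another, while Serpinb9 and Serpinb9b are 85.3% identical. Serpinb6a and Serpinb6b share 81.2% of aligned columns, or 86.3% when columns with gaps are left out, whereas their promoter windows share 43.3% and 44.2%. Promoter windows of more distant members gave similar values, such as 40.4% for Serpinb6b with Serpinb8 and 46.6% for Serpinb8 with Serpinb9. Serpinb8 shares between 59.0% and 66.4% with the other members, and Serpinb1a is the most distant from the rest, at 55.7% to 59.0%. Coding lengths without the stop codon run from 1122 bases (Serpinb9 and Serpinb8) to 1197 bases (Serpinb6a), which is 374 to 399 residues.

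**Figure D1:**
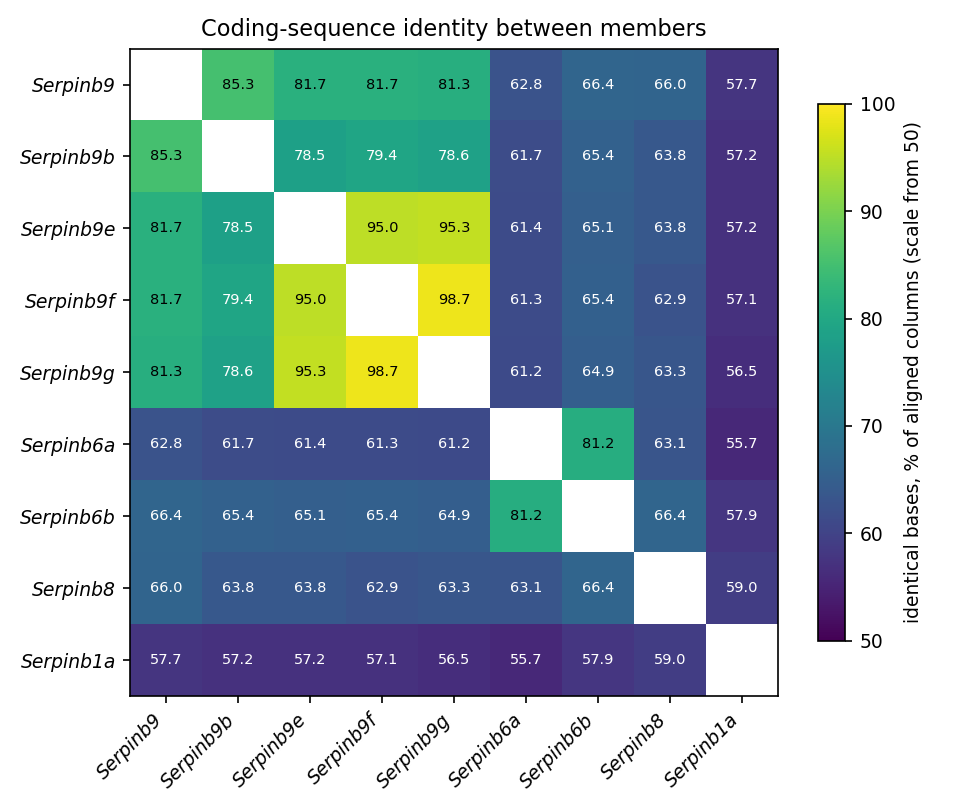
Identity between the coding sequences of the 9 clade B serpins, as the percentage of identical bases over all columns of a global alignment, with both axes listing the genes and the colour scale starting at 50. Serpinb9e, Serpinb9f and Serpinb9g form the most similar block, Serpinb9 and Serpinb9b are 85.3% identical, and Serpinb6a and Serpinb6b are 81.2% identical.

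Similar copies matter for counting, because a 75-base read from a shared stretch fits more than 1 gene. In the last 250 bases of their GENCODE transcripts, where a 3′ library reads, Serpinb9, Serpinb9b, Serpinb6a, Serpinb6b, Serpinb1a and Serpinb8 shared 0% of their 75-base stretches with transcripts of any other gene, and this was also 0% over the last 500 and 1000 bases. Serpinb9f shared 100% and Serpinb9e 55.7% of these stretches, with each other or with Gm11397, another copy of the cluster. Serpinb9g shared 0% over its last 250 bases and 14.8% over its last 500. Exact matches were compared here, so sequencing errors and mismatches are not covered.

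The libraries held between 3189035 and 3907936 reads counted on genes, so that 1 read is worth 0.256 to 0.314 CPM. Cbfb, the targeted gene, had 295 and 285 reads in sgNT and 125 and 125 in sgCbfb cells (log2 difference -1.27, standard error 0.12, adjusted p = 1.76e-07 from limma). This fits the group labels, although a read at the transcript end does not cover the guide's cut and does not measure editing. Markers of colon epithelium were at or near 0 in both groups, with 6 of 12 without a read and a summed level of 1.57 to 1.80 CPM over the libraries (Epcam 0, 1, 1 and 0 reads, Krt18 and Vil1 0), while Vim, a mesenchymal marker, had 6737 to 8669 reads. The mesenchymal list was itself uneven, since Lum and Thy1 had no read, Col1a2 had 0 to 2 and Col1a1 8 to 13. Thus the labelled colorectal origin was not visible in these markers. Of 9 mesenchymal markers, 6 were tested and Col3a1 alone was past the threshold, falling by 0.90 on the log2 scale (adjusted p = 2.46e-06 from limma), beside 1.25% lower over all tested genes. In this list 3 of the 6 log2 differences were positive, Pdgfra at 0.53, Pdgfrb at 0.82 and Col1a1 at 0.41, and the median was 0.12. Of 12 markers of cytotoxic lymphocytes, which also express Serpinb9, 9 had no read and the summed level was 0 to 0.589 CPM. Of 12 myeloid markers, 7 had no read and 1 was tested, Cd14 (27 and 20 reads in sgNT, 14 and 20 in sgCbfb), with a summed level of 8.83 and 5.997 CPM in sgNT against 4.09 and 6.59 CPM in sgCbfb.

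The members spanned a wide range of levels, from no read to 250 CPM. Serpinb6a was by far the most abundant, with 225 and 216 CPM in sgNT cells, a mean level above that of 93.8% of the tested genes. Serpinb9 followed with 10.6 and 6.90 CPM and Serpinb9b with 1.47 and 2.70 CPM. Serpinb6b had 0.883 and 1.20 CPM, Serpinb8 0.883 and 0.2998 CPM, and Serpinb1a 0.294 and 0.600 CPM. The order in sgCbfb cells was the same, with 229 and 250 CPM for Serpinb6a, 14.6 and 14.4 CPM for Serpinb9, 8.19 and 13.2 CPM for Serpinb9b, 4.09 and 3.76 CPM for Serpinb6b, 2.81 and 1.88 CPM for Serpinb8 and 1.28 and 0.627 CPM for Serpinb1a. In sgNT cells the libraries of Serpinb6b and Serpinb8 met at 0.883 CPM and those of Serpinb8 and Serpinb1a overlapped, so these neighbours did not differ beyond their spread. In sgCbfb cells no neighbours overlapped, but the gap between Serpinb9 and Serpinb9b was smaller than the gap between the libraries of Serpinb9b. These levels are CPM of recovered reads with no prior count, and compare transcript ends rather than length-corrected levels.

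**Figure D2:**
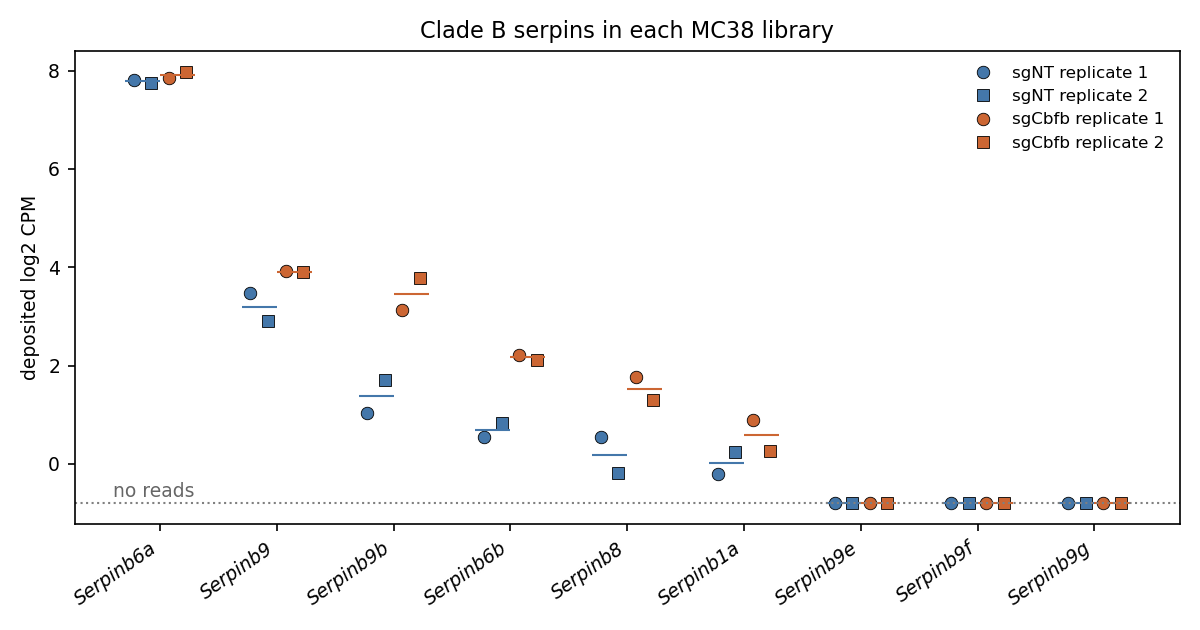
Deposited log2 CPM (vertical axis) of the 9 clade B serpins (horizontal axis) in each of the 2 sgNT and 2 sgCbfb libraries, where points are libraries and short lines are group means. Serpinb6a lies near 8 in all libraries, and Serpinb9e, Serpinb9f and Serpinb9g sit at the value of a gene without reads. In the other 6 members both sgCbfb libraries lie above both sgNT libraries, beside 27.4% of all tested genes.

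Serpinb9b, the copy next to Serpinb9, had the largest difference among the members. It had 5 and 9 reads in sgNT libraries and 32 and 42 in sgCbfb libraries. Both sgCbfb libraries lay above both sgNT libraries. The deposited values averaged 1.37 ± 0.48 log2 CPM in sgNT cells against 3.46 ± 0.46 in sgCbfb cells (SD over 2 libraries), a log2 difference of 2.08 (standard error 0.37, 95% interval 1.33 to 2.84). The deposited scale holds an added prior count of 2, which pulls low genes together. On recovered reads the pooled ratio was 5.01-fold, with a counting interval of 2.81 to 9.61. This interval covers counting error only, since reads were pooled per group and the spread between libraries is left out. Duplicate reads were not set apart by molecular identifiers either. In bulk RNA, more cells expressing a gene and more RNA per cell cannot be told apart.

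Serpinb9, the granzyme B inhibitor itself, had 36 and 23 reads in sgNT and 57 and 46 reads in sgCbfb libraries. Again the groups did not overlap. The deposited values averaged 3.19 ± 0.41 log2 CPM without and 3.91 ± 0.011 with the Cbfb guide (SD over 2 libraries). The log2 difference of 0.72 (standard error 0.26, 95% interval 0.19 to 1.26) was not past the threshold (adjusted p = 0.161 from limma). On recovered reads the pooled ratio was 1.66-fold with a counting interval of 1.19 to 2.32.

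Since both genes have 3′ ends of their own, their reads can be added without regard to sharing. The Serpinb9 copies together had 41 and 32 reads in sgNT and 89 and 88 in sgCbfb libraries, or 12.1 and 9.59 CPM against 22.8 and 27.6 CPM. The summed level was 2.32-fold higher in the sgCbfb libraries on average, and is given with no test because the genes were chosen with Serpinb9b in view. Serpinb9b made up 12.2% (exact 95% binomial interval 4.08 to 26.2) and 28.1% (13.7 to 46.7) of these reads in sgNT cells and 36.0% (26.1 to 46.8) and 47.7% (37.0 to 58.6) in sgCbfb cells. The share was higher in both sgCbfb libraries, but the intervals overlap in 3 of the 4 pairs of an sgNT with an sgCbfb library, and only those of the first sgNT and the second sgCbfb library are apart. Whether the differences of Serpinb9b and Serpinb9 differ from each other was not tested.

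**Figure D3:**
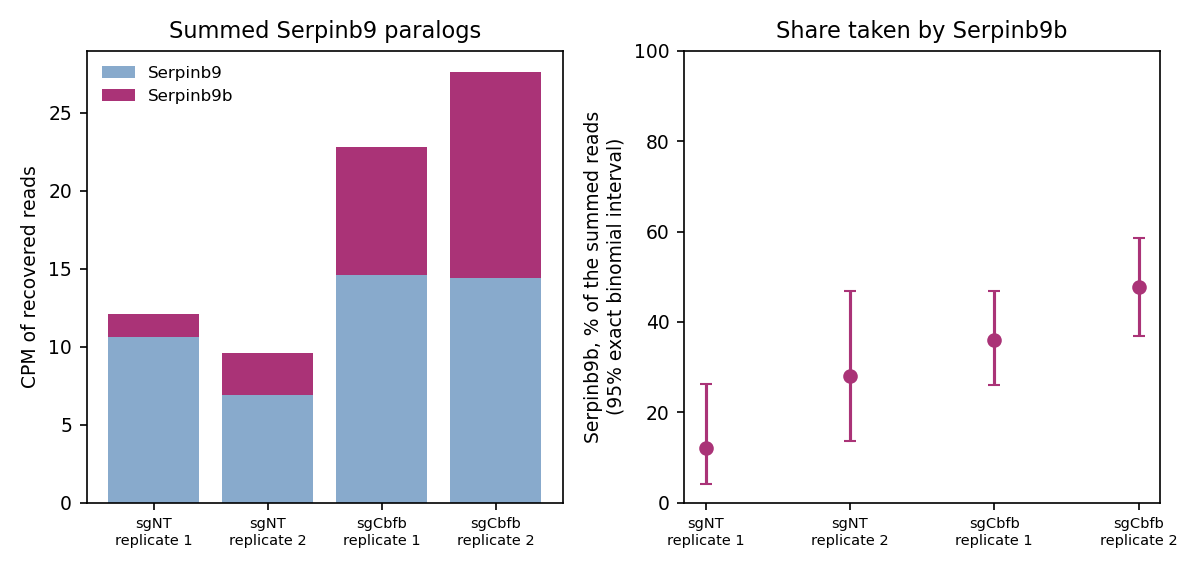
Left, stacked bars of the CPM of Serpinb9 and Serpinb9b from recovered reads in each library. Right, the share of these reads taken by Serpinb9b, with exact 95% binomial intervals that cover counting error only. The stacks reach 12.1 and 9.59 CPM in sgNT and 22.8 and 27.6 CPM in sgCbfb, and the share runs from 12.2% to 47.7%.

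Serpinb9e, Serpinb9f and Serpinb9g had 0 reads in every library, so they were not tested. A count of 0 allows up to 3 reads, or 0.768 to 0.941 CPM depending on the library. For Serpinb9g this limit rests on an end that no other gene shares, whereas for Serpinb9e and Serpinb9f it depends on how reads that fit several genes were counted, which is not given in the sources used here. Expression of these 3 copies was thus not detectable at this depth.

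The Serpinb6 pair behaved unequally in size. Serpinb6b had 3 and 4 reads in sgNT and 16 and 12 reads in sgCbfb libraries, with no overlap. The means were 0.69 ± 0.20 and 2.17 ± 0.075 log2 CPM (SD over 2 libraries). Its log2 difference of 1.48 (standard error 0.42, 95% interval 0.61 to 2.35) was not past the threshold (adjusted p = 0.0570 from limma). The pooled ratio was 3.79-fold with a counting interval of 1.62 to 10.3. Serpinb6a had 765 and 719 reads in sgNT and 895 and 796 reads in sgCbfb libraries. These were 7.79 ± 0.045 and 7.90 ± 0.088 log2 CPM (SD over 2 libraries), which differ by 0.12 (standard error 0.073, adjusted p = 0.496 by limma). With its many reads, the 95% interval of -0.034 to 0.27 was the narrowest among the members, and lay wholly below that of Serpinb6b, although the difference between the genes was not tested. Serpinb6a overlaps genes of the opposite strand, and the use of strand in counting is not given. Nqo2 (log2 difference -0.052) had 79 to 98 reads, 1110046J04Rik 4 in each library and Ripk1 91 to 133. Whether reads of the overlap affected the Serpinb6a count was not tested.

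Serpinb8 and Serpinb1a were close to the limit of detection. Serpinb8 had 3 and 1 reads in sgNT and 11 and 6 reads in sgCbfb libraries. The groups did not overlap, and the log2 difference was 1.35 (standard error 0.48, 95% interval 0.35 to 2.35, adjusted p = 0.160 from limma). Its pooled ratio of 4.03-fold has a counting interval of 1.31 to 16.5. Serpinb1a had 1 and 2 reads in sgNT and 5 and 2 reads in sgCbfb libraries, with a log2 difference of 0.56 (standard error 0.52, 95% interval -0.52 to 1.64, adjusted p = 0.690 from limma) and a pooled ratio of 2.21-fold (counting interval 0.505 to 13.3). Both genes passed the low-value filter through only 1 sgNT library and both sgCbfb libraries, so neither their selection nor their direction is independent of the groups.

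Across the members, 6 of 9 passed the filter of at least 0 log2 CPM in at least 2 libraries, and the other 3 had no read. Of the 6, only Serpinb9b, the gene that led to the choice, was past an adjusted p of 0.05, beside 1.57% of the 12207 tested genes that were higher and past it, and nothing is read from this count. Both sgCbfb libraries lay above both sgNT libraries in these 6, beside 27.4% of the tested genes, and this too is no support for a family pattern: Serpinb9b was chosen for it, and Serpinb8 and Serpinb1a passed the filter mainly through sgCbfb. For Serpinb1a the second library of each group had 2 reads, so that the order there comes from the library totals alone. Without the first sgCbfb library the log2 difference of Serpinb9b was 2.41 and without the second 1.76. In either fit no gene of the 12207 was past the threshold by limma (1104 and 1169 genes at an unadjusted p under 0.05), so no call given here, Cbfb included, was kept in them. These fits assume that the lone sgCbfb library varies like the sgNT libraries.

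To see whether the difference extended over the locus, every other tested gene within 500 kb of the cluster was followed, chosen by position alone. There were 9 such genes. Within the cluster, Serpinb6d (1 and 6 reads in sgNT, 2 and 2 in sgCbfb), 1110046J04Rik, Nqo2, a quinone reductase, and Ripk1, the kinase of the TNF receptor pathway, had log2 differences of -0.33, -0.044, -0.052 and -0.0079. None of these was past the threshold. In the flanks, Wrnip1, Bphl, Tubb2a and Psmg4 had log2 differences of -0.041, 0.55, -0.23 and 0.12 and were not past it either. Tubb2a has near-identical tubulin copies. Slc22a23, a gene of the organic ion transporter family, fell from 156 and 110 reads in sgNT to 66 and 58 in sgCbfb libraries (log2 difference -1.13, standard error 0.18, adjusted p = 2.44e-04 from limma). The median over the 9 genes was -0.044, beside 0.039 over all tested genes. Over all tested genes 1.57% were higher and 1.25% lower, so that no result about the locus is read from the calls among 9.

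**Figure D4:**
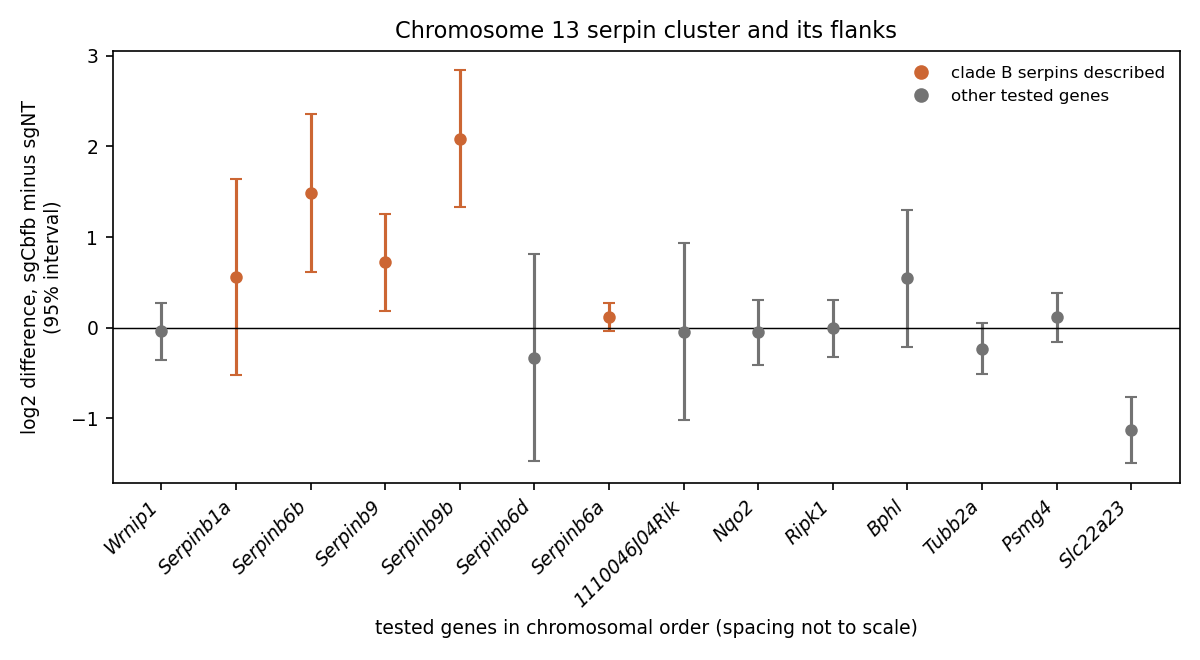
Log2 difference, sgCbfb minus sgNT, with its 95% interval from limma (vertical axis) for each tested gene of the chromosome 13 cluster and its flanks in chromosomal order (horizontal axis, spacing not to scale). Serpinb9b at 2.08 and Serpinb6b at 1.48 are the highest, Serpinb6a at 0.12 and Nqo2 at -0.052 lie near 0, and Slc22a23 at -1.13 is the lowest.

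The rest of the clade was nearly silent in MC38 cells. Of 19 other clade B serpins, 18 were listed by the symbols used, 12 had no read and 2 were tested, Serpinb2 and Serpinb6d, with 0 past the threshold in either direction (limma; neither had an unadjusted p under 0.05), beside 1.57% higher and 1.25% lower over all tested genes, so that nothing is read from a list of 2. Their summed level was 0.294 and 2.998 CPM in sgNT and 2.56 and 1.25 CPM in sgCbfb libraries. The remaining copy, Serpinb9h, is listed under its older name Gm11397 and had 1 read in total. Among 31 serpins of other clades, 6 were tested, and 2 were higher and 1 lower past the threshold. Over all tested genes 1.57% were higher and 1.25% lower. Of the 6, 1 that was not past the threshold had no read in sgNT and passed the filter only through the sgCbfb libraries. Serpine2, a secreted inhibitor of thrombin and plasminogen activators, rose from 31 and 31 reads in sgNT to 68 and 57 in sgCbfb cells (log2 difference 0.90, standard error 0.23, adjusted p = 0.0310 from limma). Serpinf1, the secreted factor PEDF, which is not a protease inhibitor, fell from 58 and 49 reads to 35 and 19 (log2 difference -1.06, standard error 0.26, adjusted p = 0.0242 from limma). Serpinh1, the collagen chaperone HSP47, had 897 and 1009 reads in sgNT and 1252 and 1007 in sgCbfb cells and was not past it (log2 difference 0.17, adjusted p = 0.249 from limma).

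The proteases that these inhibitors meet were next compared. Granzymes, perforin and leukocyte serine proteases were absent or at single reads, with 14 of 17 without a read and 0 tested, and Gzmb and Prf1 had 0 reads in every library. Of 13 other proteases, 11 were tested, 0 were higher and 1 was lower (1.25% of all tested genes were lower), with a median log2 difference of -0.062 (0.039 over all tested genes). That gene was Casp4, an inflammatory caspase, which fell from 84 and 71 reads in sgNT to 32 and 23 in sgCbfb libraries (log2 difference -1.51, standard error 0.23, adjusted p = 1.53e-04 from limma). Furin had 282 and 302 reads in sgNT against 389 and 292 in sgCbfb (log2 difference 0.14, adjusted p = 0.563 from limma), and cathepsin L (Ctsl) 1851 and 1846 against 2055 and 1679 (log2 difference -0.062, adjusted p = 0.690 from limma). Of 14 genes for substrates and uptake of granzyme B in a target cell, all were tested and 0 were past the threshold in either direction by limma (1 at an unadjusted p under 0.05), 6 with a positive sign and a median log2 difference of -0.040. Over all 12207 tested genes 1.57% were higher and 1.25% lower, 1820 had an unadjusted p under 0.05 and 57% a positive sign, so that a count of 0 in a list of this size is read as no result about it. Bid, which granzyme B cleaves, had 161 and 165 reads in sgNT and 207 and 182 in sgCbfb (log2 difference 0.18, 95% interval -0.066 to 0.43).

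The profile of Serpinb9b over the 4 libraries was compared with 9280 other genes of at least its mean level, by Euclidean distance of log2 values centred on each gene's mean. The nearest included Has2, a hyaluronan synthase (distance 0.49), Cryab, a small heat-shock protein (0.56), 2200002D01Rik (0.60) and Tle4, a corepressor (0.70). Has2 had 8 and 11 reads in sgNT and 62 and 56 in sgCbfb libraries, and Cryab 32 and 31 against 136 and 136. With 2 libraries in each group this likeness amounts to a difference of similar size in the same direction, and the distance is a description only.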

How the data were processed

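The authors used cutadapt 1.9 to trim the single-end reads of 75 bases, HISAT2 2.1.0 for alignment to GRCm38 (mm10), and for counting per gene featureCounts (2.0.1 in the submitters' processing notes, an earlier Subread release in the methods). They deposited log2 CPM values for 26322 genes, scaled to library totals with a prior count of 2. Annotation release, use of strand and treatment of reads fitting several genes are not given in the sources used here.

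Whole reads were recovered from the deposited log2 values, and at least 99.99% of the values above the floor came out whole to within 0.1 read. The 12207 genes that reached 0 on the log2 CPM scale in 2 or more libraries were fitted with limma 3.58.1 in R 4.3.3. The settings were lmFit, eBayes with a mean-variance trend, two-sided, Benjamini-Hochberg adjustment over all tested genes, and a threshold of 0.05. A run on simulated counts put changes only into genes with more reads than Serpinb6b, Serpinb8 and Serpinb1a. That run says nothing about members at their level. With 2 libraries against 2, an exact permutation test cannot give a p under 0.333. The counting intervals of ratios are exact binomial (95%) on reads pooled per group. Positions and transcripts are from GENCODE M21, promoters from RefSeq, and alignments were made with Biopython 1.88 in Python 3.11.15. Coding sequences were compared because no protein table was used.

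The members and lists were chosen with earlier results of these data known. The genes named are the members, Cbfb, list genes past the threshold, tested genes within 500 kb of the cluster and the 5 profiles nearest to Serpinb9b, and a few others chosen after their values were seen (Serpinh1, Furin, Ctsl, Bid and the markers). A gene that these rules select is not reported here. Alternatives were other filters, scalings, variance models, voom on recovered reads, a replicate block, each library left out and a threshold of 0.01.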

Additional observations from a re-analysis of the deposited data

How the results depend on the processing

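There were 14 alternatives for Serpinb9, Serpinb9b and Serpinb6a and 13 for Serpinb6b, Serpinb8 and Serpinb1a, which have no value with a minimum of 5 CPM. No log2 difference of these members changed sign, which is no sign of stability for any of them. Their groups did not overlap, so leaving out a library could not change a sign, and several settings left the estimate as it was. The choice also rests on Serpinb9b, and Serpinb8 and Serpinb1a passed the filter mainly through sgCbfb. The Serpinb9b difference was short of the threshold with quantile normalization (2.03), without the mean-variance trend (2.08) and without either sgCbfb library, where no gene passed, and ranged from 1.74 to 2.42 with each library left out. With each library left out, the other members ranged from 0.43 to 1.01 (Serpinb9), 1.34 to 1.62 (Serpinb6b), 0.98 to 1.72 (Serpinb8), 0.25 to 0.87 (Serpinb1a) and 0.055 to 0.18 (Serpinb6a). The replicate block left the Serpinb6b difference at 1.48 and brought it past the threshold, so that 2 members passed. Its adjusted p ranged from 0.0318 to 0.551 over the alternatives. The deviations of same-numbered libraries had a correlation of -0.0042 across genes, so the numbers were not treated as pairs, and how the replicates were made is not known. The block changed the call of no other member.

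Members past the threshold numbered 0 with quantile normalization and 0 without the trend, and from 0 to 1 with each library left out. Over all genes, against 192 higher and 153 lower, there were 300 higher with a minimum of 5 CPM, 40 and 48 with quantile normalization, 0 and 0 without the trend (1461 at an unadjusted p under 0.05), 243 lower in voom on recovered reads with median scaling, 320 higher with the replicate block, 103 and 97 at an adjusted p under 0.01, and 0 to 115 higher and 0 to 86 lower with each library left out. The log2 difference of the summed Serpinb9 copies on recovered reads was 1.22, and 0.76 for Serpinb9 and 2.38 for Serpinb9b taken alone. The causes were not tested. At this depth a member under about 10 reads is known only within a several-fold counting interval.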
